A study of Homo sapiens with 6 samples.

Results

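Small nucleolar RNA host genes were examined in HGC-27, a cell line from a human gastric cancer, with and without overexpression of GC0643, a gene predicted from sequence outside the reference genome. All genes whose GENCODE symbol is SNHG followed by a number were taken, together with GAS5, ZFAS1, EPB41L4A-AS1, DANCR, TAF1D and MIR17HG, which were listed by name. This gave 34 genes, 28 with an SNHG symbol and 6 listed, of 58825 genes in the count table. Of these, 33 are long noncoding RNA genes, and TAF1D is a protein-coding gene. MIR17HG hosts microRNAs in place of small nucleolar RNAs. The comparison was between 3 libraries of cells carrying the GC0643 expression vector (genotype GC0643 overexpression) and 3 libraries of cells carrying the vector alone (genotype Vector), and asks which genes differ with GC0643. By the study's methods, stable lines were made by retroviral infection and puromycin selection, and the labels do not say whether the 3 libraries of a group came from separate cultures. P-values therefore measure the spread between these libraries, which may be technical.

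Small nucleolar RNAs (snoRNAs) are short RNAs of the nucleolus that guide the chemical modification of ribosomal and spliceosomal RNA. Box C/D snoRNAs direct 2'-O-methylation, and box H/ACA snoRNAs direct the change of uridine into pseudouridine. In human cells most are cut out of introns of longer host transcripts after splicing. Some hosts code for ribosomal or nucleolar proteins, while others, the SNHG genes among them, yield a spliced RNA with no long reading frame. Several of these spliced RNAs, GAS5 being the best known, begin with a run of pyrimidines (a 5' terminal oligopyrimidine tract) like mRNAs of ribosomal proteins, and are broken down by nonsense-mediated decay while being translated. The level of a host's spliced RNA and that of its snoRNAs can thus be set at different steps. Many SNHG transcripts are also studied as noncoding RNAs of cancer in their own right.

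Total counts ranged from 20376722 to 24069166 per library, and 19528 genes passed a filter on low counts. The level of GC0643 was not analysed here and could not serve as a check of the labels. The libraries differed in how their values followed GC content, the share of G and C in a gene's canonical transcript. The log2 ratio of a library to the mean of all libraries changed by -0.14 to -0.06 per 10 points of GC in the GC0643 libraries, by 0.13 and 0.23 in Vector replicates 1 and 3, and by -0.05 in Vector replicate 2. Over all genes, Vector replicate 2 had a correlation of log2 CPM of 0.995 with GC0643 replicates 2 and 3 (Pearson's r across genes, which are not independent), against 0.992 with Vector replicate 1, 0.982 with Vector replicate 3 and 0.991 with GC0643 replicate 1. Values without this library and after a correction for GC content are given beside each of the 8 host genes with an unadjusted p under 0.05, and the GC-corrected value beside most others. Of 12 markers of gastric epithelium, 1 (KRT8) passed the filter, and CDH1 and EPCAM lay at 0.207 and 0.287 CPM (read counts scaled to a common library total). All 6 mesenchymal markers passed, and VIM averaged 3181 CPM. Of these, COL1A2, DCN and FN1 were higher with GC0643 at an unadjusted p under 0.05, beside 13.1% of all genes. COL1A1 (-0.08) and PDGFRB (-0.36) had negative log2 fold changes (GC0643 over Vector), and VIM had 0.03. After GC correction, COL1A2 and FN1 stayed at an unadjusted p under 0.05, and DCN, with a log2 fold change of 0.17, did not. The 6 markers summed to 4916 to 5316 CPM in GC0643 libraries and 5007 to 5176 CPM in Vector libraries. Their part in the results on host genes was not tested. Markers of erythroid cells (0 of 3 passed) and endothelium (0 of 3) were at or near 0.

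The sequences below show what the hosts carry. GENCODE places 153 snoRNAs or small Cajal body RNAs and 9 microRNAs within the members on the same strand, and 32 of 34 members hold at least 1 of the former. SNHG29 on chromosome 17 (chr17:16438767-16480249, GRCh38, plus strand) carries SNORD49B, SNORD49A and SNORD65. Box C (TGATGA) and box D (CTGA) are in capitals, as found on the RNA's own strand near its ends, and SNORD49B took most of the counts at the snoRNAs of SNHG29.
SNORD49B (chr17:16439505-16439576): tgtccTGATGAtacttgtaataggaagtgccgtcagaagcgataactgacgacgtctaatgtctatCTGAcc
SNORD49A (chr17:16440036-16440106): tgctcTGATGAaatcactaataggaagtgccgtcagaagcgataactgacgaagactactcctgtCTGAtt
SNORD65 (chr17:16441226-16441298): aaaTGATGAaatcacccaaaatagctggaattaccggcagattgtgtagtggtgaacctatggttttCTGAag
SNORD49A and SNORD49B, 71 and 72 bases long, share a stretch of 35 bases. SNHG5 (chr6:85650491-85678932, minus strand) carries SNORD50B, and TAF1D (chr11:93729948-93784391, minus strand) carries SNORD5 together with several H/ACA snoRNAs such as SNORA32, whose ACA box is in capitals near the end. These are shown because both hosts were among the members with the smallest p.
SNORD50B (chr6:85677589-85677658, minus strand): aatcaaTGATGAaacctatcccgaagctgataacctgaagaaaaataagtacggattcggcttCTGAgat
SNORD5 (chr11:93733228-93733300, minus strand): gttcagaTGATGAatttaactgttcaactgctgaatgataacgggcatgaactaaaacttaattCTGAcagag
SNORA32 (chr11:93730979-93731099, minus strand): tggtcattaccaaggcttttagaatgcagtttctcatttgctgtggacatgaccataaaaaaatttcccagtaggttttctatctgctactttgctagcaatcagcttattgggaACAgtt

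MIR17HG (chr13:91347686-91397592, plus strand) is the primary transcript of the miR-17-92 cluster, a group of microRNAs known for a role in cancer. It holds 6 microRNA genes, for which RefSeq (GRCh38.p14) gives 12 mature forms. The seed, bases 2 to 8, is in capitals below, and a shared seed means that target sites are largely shared. MiR-17-5p and miR-20a-5p have the same seed, and miR-19a-3p and miR-19b-3p have another in common.
hsa-miR-17-5p: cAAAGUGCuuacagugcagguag
hsa-miR-20a-5p: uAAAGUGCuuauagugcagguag
hsa-miR-18a-5p: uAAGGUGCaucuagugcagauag
hsa-miR-19a-3p: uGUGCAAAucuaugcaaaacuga
hsa-miR-19b-3p: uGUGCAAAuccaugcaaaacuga
hsa-miR-92a-3p: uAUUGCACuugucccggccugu

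Start sites were read from the RefSeq promoter table (GRCh38.p14), in which 30 of 34 members were matched. The longest run of C and T with at least 1 C that begins within 20 bases of the annotated start, on the gene's strand, is in capitals, since pyrimidine tracts at the start are the feature that hosts share with ribosomal protein mRNAs. Each window covers 20 bases before the start and 30 from it. The starts of RefSeq and GENCODE are not the same for every gene.
TAF1D (chr11:93741466-93741515, minus strand): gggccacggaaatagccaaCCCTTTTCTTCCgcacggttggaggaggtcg
SNHG16 (chr17:76557744-76557793, plus strand): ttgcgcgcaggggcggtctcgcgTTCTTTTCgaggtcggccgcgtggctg
SNHG32 (chr6:31834896-31834945, plus strand): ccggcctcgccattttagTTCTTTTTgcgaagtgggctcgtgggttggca
SNHG4 (chr5:139274081-139274130, plus strand): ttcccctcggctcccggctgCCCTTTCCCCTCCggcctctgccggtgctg
SNHG5 (chr6:85678704-85678753, minus strand): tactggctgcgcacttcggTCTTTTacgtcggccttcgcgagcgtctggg
ZFAS1 (chr20:49278622-49278671, plus strand): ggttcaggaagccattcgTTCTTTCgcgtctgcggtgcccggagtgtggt
SNHG11 (chr20:38446634-38446683, plus strand): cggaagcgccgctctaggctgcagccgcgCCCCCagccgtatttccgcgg
A run of 8 or more was found in 9 of 30 members (30.0%), in 25.2% of 266 protein-coding snoRNA hosts, in 17.5% of 17201 genes tested and in 18.1% of 35116 promoters. These 266 hosts are a larger set than the 230 protein-coding hosts whose fold changes are described below. The 9 members were SNHG4, SNHG7, SNHG12, SNHG16, SNHG18, SNHG26, SNHG29, SNHG32 and TAF1D. Not every run lies at the start itself. Those of SNHG29 (13 bases from position -17) and SNHG7 (11 bases from -14) end before the annotated start, and that of SNHG26 begins at position 10 after it. A match describes these letters only, and GAS5, known for such a tract, had a longest run of 3 bases at its annotated RefSeq start.

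The members spanned a wide range of levels. Levels between genes are given as CPM per kilobase of merged exon length, as the mean over the 6 libraries. SNHG32, which lies in the class III region of the MHC, led with 110.5 ± 13.4 (SD, n = 6), followed by SNHG29 at 101 ± 1.94. Their ranges overlapped, and both lay clear of the genes beneath. ENSG00000285565, at 168.3 CPM, covers 23.2% of the exon bases of SNHG32 on the same strand. LRRC75A, at 445.8 CPM, covers 5.59% of those of SNHG29 on the opposite strand. Reads of these partners can be part of both levels and cannot be told apart. SNHG16 (46.1 ± 7.96), GAS5 (43.3 ± 6.93), SNHG25 (39.3 ± 4.5), SNHG6 (37.6 ± 5.61), SNHG19 (34.8 ± 6.67), SNHG3 (34.3 ± 3.69), SNHG7 (32.9 ± 4.43) and SNHG1 (30.5 ± 3.65) formed a second tier in which each neighbour overlapped the next. SNORA50C covers 39.1% of the exon bases of SNHG25. Its mean was 5.73 CPM with GC0643 and 6.49 with Vector, against 12.5 and 14.2 CPM for SNHG25. SNORD60 covers 13.5% of those of SNHG19, with 5.09 and 4.07 CPM against 21.2 and 21.5. Reads of these snoRNAs can thus be part of both host levels. DANCR at 21.9 ± 2.32 lay under SNHG1 with no overlap. In all, 14 members were at 10 or more CPM per kilobase and 6 were under 1, and the ranges of 27 of 33 neighbouring pairs in the order overlapped. SNHG14, spread over 122609 bases of merged exons, was the lowest with a count at 0.0361 ± 0.00830. SNHG28 had no count in any library, where 3 counts, the limit that a count of 0 allows, correspond to 0.125 to 0.148 CPM. With the length of the longest transcript in place of merged exons, SNHG29 came before SNHG32 and 18 members were at 10 or more. On the plain CPM scale SNHG29 alone held 30.4% of the members' sum, which was 2840 to 3104 CPM per library.

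**Figure D1:**
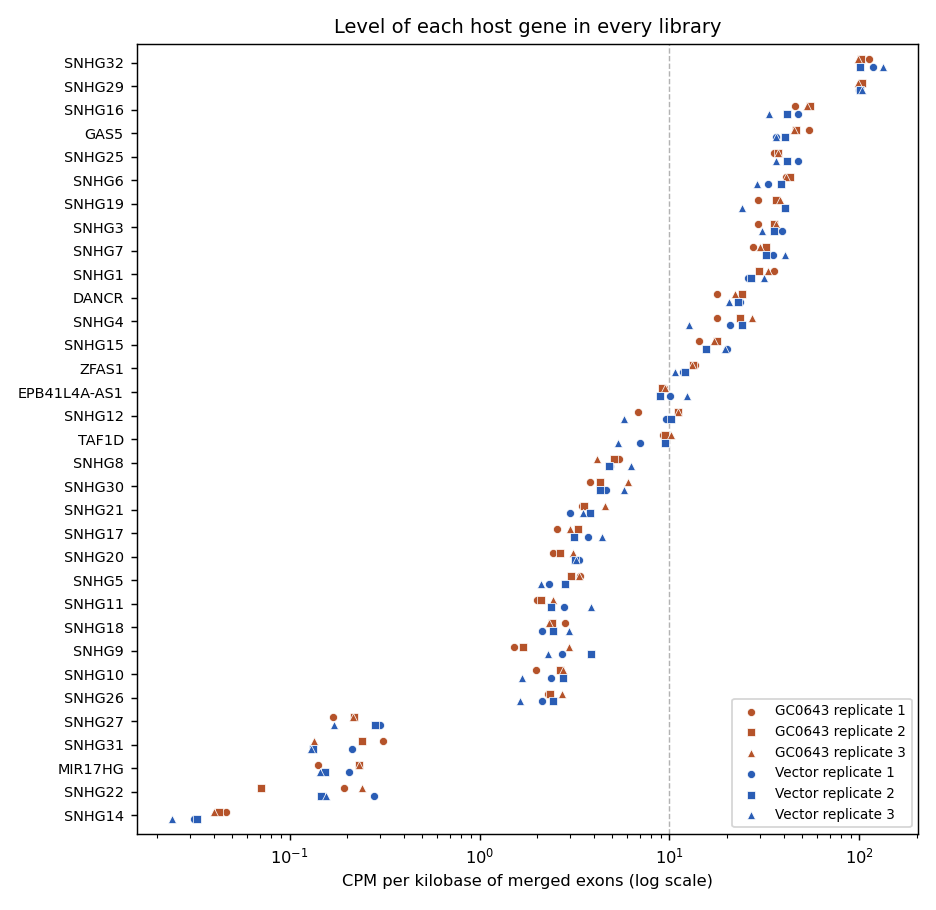
Level of each of the 33 host genes with a count, in CPM per kilobase of merged exons on a log axis, with 1 point per library (orange, GC0643; blue, Vector; the shape gives the replicate) and a dashed line at 10. SNHG32 and SNHG29 stand apart at the top, a group from SNHG16 (46.1) to SNHG1 (30.5) follows, and SNHG27, SNHG31, MIR17HG, SNHG22 and SNHG14 lie under 1.

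Between GC0643 and Vector, the host genes went in both directions. Of 33 members tested, 16 had a positive log2 fold change (GC0643 over Vector) and 17 a negative one. Their median was -0.01, against 0.02 over all genes. At an adjusted p under 0.05 (edgeR's quasi-likelihood test, Benjamini-Hochberg over 19528 genes), 0 members and 0% of all genes passed, and the lowest adjusted p was 0.26 among members and 0.177 over all genes. The likelihood ratio test called 16 genes, DESeq2 1 and limma voom 0, none of them a member. At an unadjusted p under 0.05, GAS5, SNHG5, SNHG14, SNHG6, SNHG16 and TAF1D were higher, which is 6 members (18.2%) beside 13.1% of all genes. SNHG11 and SNHG17 were lower, 2 members (6.06%) beside 5.26% of all genes. With a fold change over 1.5 as well, the thresholds of the study, 0 members passed in either direction, against 1.6% of all genes higher and 0.871% lower. The values of the 2 groups did not overlap in 5 members that were higher (GAS5, SNHG14, SNHG5, SNHG6 and ZFAS1; 11.8% of all genes) and in 1 that was lower (SNHG20; 10.5% of all genes). In the fit without GC correction, the members' counts in each direction were thus close to what the share of all genes gives, and the non-overlapping ones on the lower side were fewer.

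**Figure D2:**
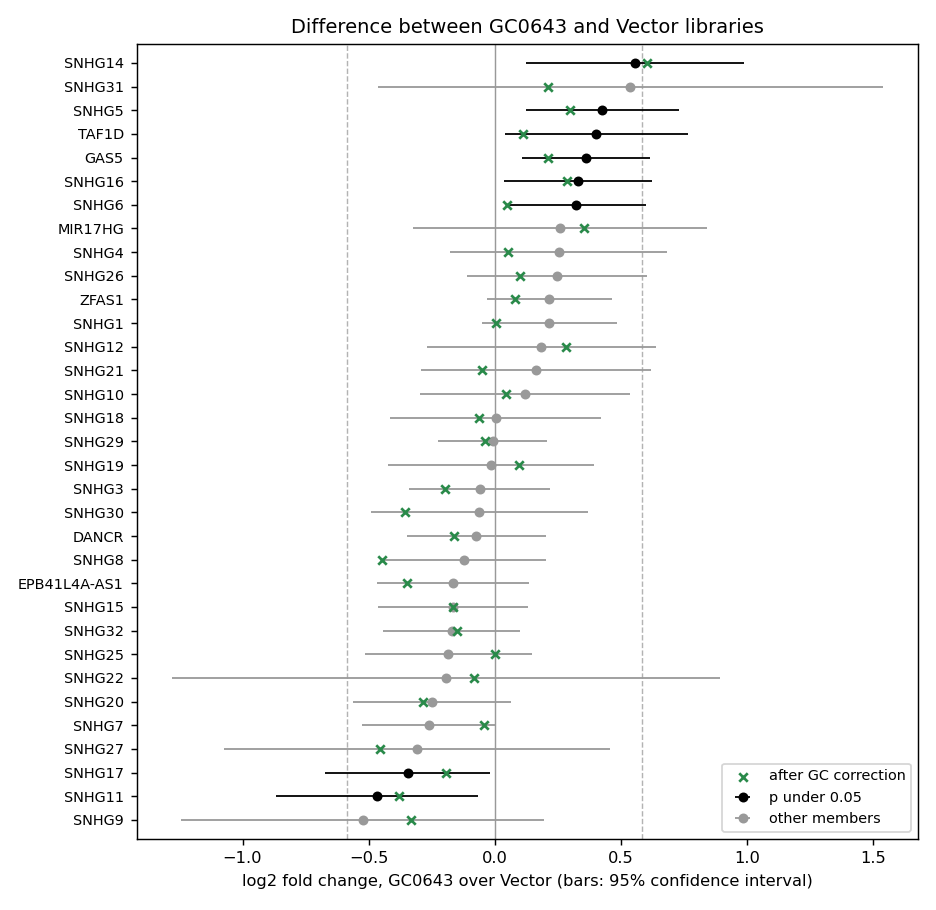
Log2 fold change of the 33 members tested (circles, with 95% confidence intervals; black where the unadjusted p was under 0.05) and the same after GC correction (green crosses), with dashed lines at a fold change of 1.5 in each direction. The values run from -0.52 for SNHG9 to 0.56 for SNHG14, and 8 intervals leave out 0.

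Hosts of box C/D snoRNAs gave the 3 smallest p-values. GAS5 (growth arrest specific 5; chr1:173858559-173868882, minus strand) codes for a spliced RNA that accumulates when growth stops, and its introns carry snoRNAs. It had 268.9, 229.0 and 222.8 CPM in GC0643 replicates 1 to 3 and 179.5, 201.3 and 179.9 CPM in Vector replicates 1 to 3. All 3 GC0643 libraries were above all 3 Vector libraries, with replicate 1 of GC0643 the highest. In bulk RNA, more cells with an RNA and more RNA per cell cannot be told apart. The log2 fold change was 0.36 ± 0.12 (SE; adjusted p = 0.26, edgeR), or 28.5% more. It was 0.21 after GC correction and 0.42 without Vector replicate 2 (adjusted p = 0.0286, edgeR).

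SNHG5, the host of SNORD50B and a gene first described at a translocation breakpoint in lymphoma, had 42.4, 38.1 and 41.9 CPM with GC0643 and 29.2, 35.5 and 26.4 CPM with Vector. The groups did not overlap, and Vector replicate 2 was the closest to GC0643. Its log2 fold change was 0.43 ± 0.14 (SE), 0.30 after GC correction and 0.56 without Vector replicate 2. ENSG00000271793, a protein-coding gene on the same strand that covers 7.48% of the exon bases of SNHG5, had a log2 fold change of 0.42. SNHG6, on chromosome 8 and the host of SNORD87, had 104.1, 109.0 and 104.1 CPM with GC0643 and 83.2, 97.7 and 72.6 CPM with Vector. The groups did not overlap here either, and the GC0643 libraries lay closer together than those of Vector. Its log2 fold change of 0.32 ± 0.13 (SE) came to 0.05 after GC correction and to 0.44 without Vector replicate 2. MCMDC2, on the opposite strand, covers 58.9% of the exon bases of SNHG6 and had a log2 fold change of 0.52. For the tumour RNA-seq of the same study, counting credited a read to every gene it overlapped and named no strand option, and the options for these libraries are not stated, so reads of such partners cannot be told apart.

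SNHG16, the host of SNORD1A, SNORD1B and SNORD1C and a gene described in several tumours, had 263.7, 318.8 and 307.8 CPM with GC0643 and 274.6, 240.0 and 193.4 CPM with Vector. Vector replicate 1 lay above GC0643 replicate 1, so the groups overlapped. The log2 fold change was 0.33 ± 0.14 (SE; adjusted p = 0.261, edgeR), 0.29 after GC correction and 0.34 without Vector replicate 2 (adjusted p = 0.107, edgeR). An opposite-strand gene, ENSG00000284526, covers 28.5% of its exon bases and had a log2 fold change of 0.33. SNHG14 (chr15:24978583-25420336, plus strand) is the long imprinted transcript of the Prader-Willi region that hosts SNORD115 and SNORD116 and runs antisense to UBE3A. It had 5.69, 5.24 and 4.88 CPM with GC0643 and 3.84, 3.98 and 2.95 CPM with Vector. Those groups did not overlap. Its log2 fold change of 0.56 ± 0.20 (SE; 95% interval 0.12 to 0.99) was the largest positive one among members, and it was 0.60 after GC correction and 0.64 without Vector replicate 2 (adjusted p = 0.0546, edgeR). UBE3A, the ubiquitin ligase on the other strand, shares 1822 exon bases with it, was at 38.2 CPM and had 0.19. SNRPN, PWAR1 and PWAR5, which overlap SNHG14 on its own strand, were at 0 CPM, and reads of SNHG14 and UBE3A cannot be told apart where they overlap.

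The remaining box C/D hosts had intervals that held 0. SNHG1, host of SNORD22, SNORD25 to SNORD28 and SNORD30 in this annotation, had 141.4, 118.1 and 131.1 CPM with GC0643 and 103.1, 107.4 and 125.5 CPM with Vector. This gave a log2 fold change of 0.22 ± 0.13 (SE), and of 0.00 after GC correction. ZFAS1, antisense to the start of the zinc finger gene ZNFX1 and host of SNORD12, SNORD12B and SNORD12C, had 113.8, 110.9 and 108.8 CPM with GC0643 and 97.8, 99.9 and 89.2 CPM with Vector. Its groups did not overlap, yet the log2 fold change was 0.22 ± 0.12 (SE; adjusted p = 0.299, edgeR), and 0.08 after GC correction. SNHG29 had 906.8, 919.7 and 875.5 CPM with GC0643 and 890.5, 905.0 and 920.2 CPM with Vector. All 6 values lay close together, and the log2 fold change was -0.01 with a 95% interval from -0.22 to 0.21. SNHG32, host of SNORD48 and SNORD52, had 201.9, 182.6 and 177.2 CPM with GC0643 and 212.1, 180.6 and 239.5 CPM with Vector. The groups overlapped, with a log2 fold change of -0.17 ± 0.13 (SE), and of -0.15 after GC correction. SNHG19, host of SNORD60, had 18, 22.3 and 23.4 CPM with GC0643 and 24.8, 24.8 and 14.8 CPM with Vector, a log2 fold change of -0.02 ± 0.19 (SE) that was positive after GC correction (0.10). SNHG25, a short host of SNORD104 and SNORA50C, had 12.1, 12.7 and 12.7 CPM with GC0643 and 16.1, 14.2 and 12.4 CPM with Vector, a log2 fold change of -0.18 ± 0.16 (SE) that was 0.00 after GC correction.

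**Figure D3:**
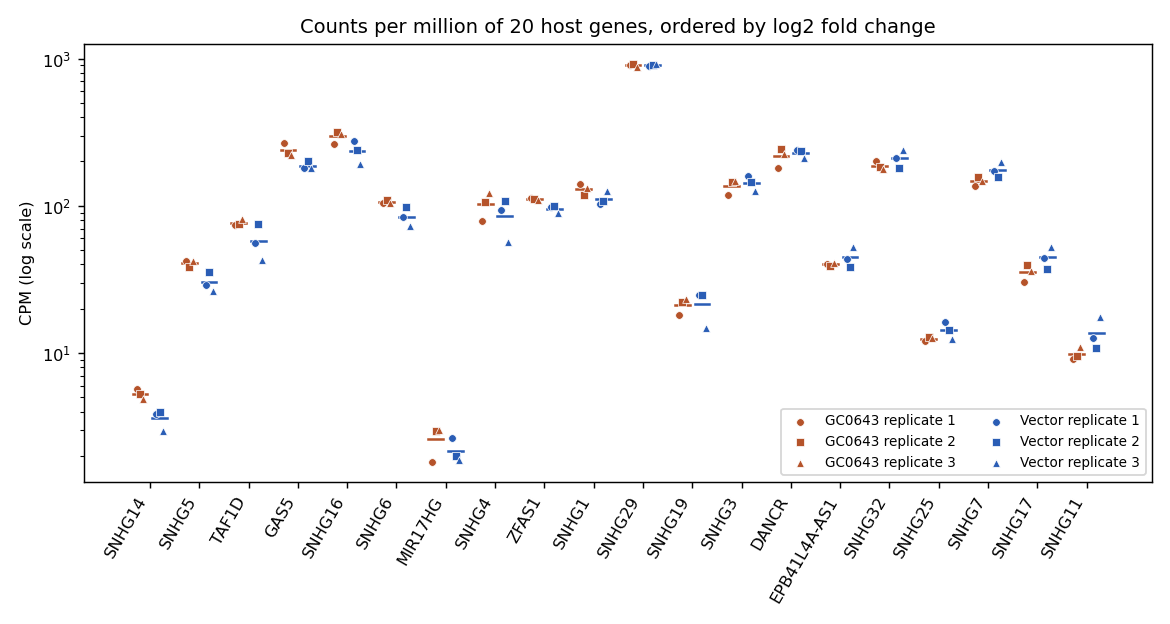
CPM on a log axis for 20 members (the 6 listed by name, 8 with the smallest p and 6 highest per kilobase), ordered by log2 fold change, with 1 point per library and a bar at each group's mean (orange, GC0643; blue, Vector). GAS5, SNHG5, SNHG6, SNHG14 and ZFAS1 show separate groups, SNHG29 shows 6 values close together, and Vector replicate 3 (blue triangles) is often the outermost point.

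Hosts of H/ACA snoRNAs went both ways. TAF1D, a subunit of selectivity factor 1 that RNA polymerase I uses to start ribosomal RNA synthesis, is the protein-coding member. It had 73.6, 75.3 and 81.4 CPM with GC0643 and 55.9, 75.45 and 42.9 CPM with Vector. Vector replicate 2 fell among the GC0643 libraries, and the other Vector libraries were lower. The log2 fold change was 0.40 ± 0.17 (SE; adjusted p = 0.261, edgeR), 0.11 after GC correction and 0.64 without Vector replicate 2 (adjusted p = 0.0111, edgeR). SNHG17, host of the SNORA71 group, had 30.4, 39.5 and 35.8 CPM with GC0643 and 44.5, 37.2 and 52.4 CPM with Vector. Its groups overlapped through GC0643 replicate 2 and Vector replicate 2. The log2 fold change was -0.34 ± 0.15 (SE; adjusted p = 0.267, edgeR), -0.19 after GC correction and -0.46 without Vector replicate 2 (adjusted p = 0.0345, edgeR). SNHG11, its neighbour on chromosome 20 (chr20:38446343-38450940, plus strand) and host of SNORA60 and SNORA71E, had 9.10, 9.53 and 11.0 CPM with GC0643 and 12.7, 10.8 and 17.5 CPM with Vector. GC0643 replicate 3 lay just above Vector replicate 2. The log2 fold change was -0.47 ± 0.19 (SE; adjusted p = 0.26, edgeR), -0.38 after GC correction and -0.61 without Vector replicate 2 (adjusted p = 0.0293, edgeR).

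SNHG7, host of SNORA17A and SNORA17B, had 135.2, 157.6 and 146.3 CPM with GC0643 and 171.8, 157.1 and 197.4 CPM with Vector. The difference was -0.26 ± 0.12 on the log2 scale (SE; adjusted p = 0.274, edgeR), and -0.04 after GC correction. DIPK1B, on the opposite strand, covers 30.3% of the exon bases of SNHG7 and had a log2 fold change of -0.24. SNHG7 had the highest GC content of the members, 65.9%. SNHG3, host of SNORA73A and SNORA73B, had 118.9, 145.0 and 147.9 CPM with GC0643 and 159.1, 145.0 and 125.2 CPM with Vector. SNHG4, host of SNORA74A, shares 14.0% of its exon bases with MATR3 (log2 fold change 0.41) on the same strand and had 79.2, 105.5 and 122.0 CPM with GC0643 and 93.0, 107.4 and 56.8 CPM with Vector. The log2 fold changes of SNHG3 and SNHG4 were -0.06 ± 0.13 and 0.25 ± 0.20 (SE), or -0.19 and 0.055 after GC correction, and the groups of both overlapped. DANCR, host of SNORA26 and a noncoding RNA named for its role against differentiation, had 181.2, 244.9 and 224.3 CPM with GC0643 and 239.3, 234.2 and 210.2 CPM with Vector. GC0643 replicate 1 was the lowest, and the log2 fold change was -0.07 ± 0.13 (SE), and -0.16 after GC correction. EPB41L4A-AS1, host of SNORA13, had 40.1, 39.3 and 40.6 CPM with GC0643 and 43.4, 38.2 and 52.8 CPM with Vector. Its log2 fold change was -0.16 ± 0.14 (SE), and -0.35 after GC correction. EPB41L4A on the opposite strand covers 51.3% of its exon bases, with 9.52 CPM on average.

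MIR17HG was low, with 1.82, 2.97 and 3.01 CPM with GC0643 and 2.66, 1.99 and 1.87 CPM with Vector. The groups overlapped, and the log2 fold change was 0.26 ± 0.27 (SE; 95% interval -0.32 to 0.84), and 0.35 after GC correction. Its microRNA positions held at most 3 counts each over all libraries (0 at MIR17, MIR18A, MIR19A and MIR20A, 1 at MIR19B1 and 3 at MIR92A1), and mature microRNAs are usually too short to be kept in libraries of this kind. The other 14 members were SNHG8, SNHG9, SNHG10, SNHG12, SNHG15, SNHG18, SNHG20, SNHG21, SNHG22, SNHG26, SNHG27, SNHG28, SNHG30 and SNHG31. Of these, 13 were tested, and their log2 fold changes ran from -0.52 ± 0.34 (SNHG9) to 0.54 ± 0.47 (SNHG31), each with an unadjusted p over 0.05. SNHG20, host of SCARNA16, had 14.8, 16.2 and 18.9 CPM with GC0643 and 20.3, 19.4 and 19.6 CPM with Vector, so that its groups did not overlap. The log2 fold change was -0.25 ± 0.15 (SE; adjusted p = 0.34, edgeR), and -0.28 after GC correction. Across the members, 23 had exon bases in common with another gene of the count table, leaving aside snoRNAs, small Cajal body RNAs and microRNAs. Of these 23, 10 shared at least 10% of their own exon bases, and 19 had a partner on the opposite strand. MIR17HG is not among them, as ENSG00000292285, which covers 20.5% of its exon bases on the opposite strand, is not in the count table.

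Vector replicate 3 held the lowest or the highest value of 20 of the 33 members tested, GC0643 replicate 1 of 18, and Vector replicate 2 of 3. Without Vector replicate 2, GAS5, SNHG5, SNHG6 and TAF1D were higher and SNHG11 and SNHG17 lower at an adjusted p under 0.05 (edgeR), 4 and 2 members beside 14.7% of all genes higher and 4.36% lower. With any other library left out, 0 members passed. Leaving out Vector replicate 2 and correcting for GC content together gave 0 members and 0 genes.

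The members' fold changes went with GC content, as those of all genes did. Over the 33 members Spearman's rho between log2 fold change and GC content was -0.49 (Pearson's r -0.53), and over 19401 genes rho was -0.67; the points share the same 6 libraries. Genes of 35 to 40% GC had a median log2 fold change of 0.35, and those of 65 to 70% had -0.24. The 6 members higher at p under 0.05 had a median GC content of 46.2%, and the 2 lower ones 55.0%. After GC correction, GAS5, SNHG5, SNHG14 and SNHG16 were higher at an unadjusted p under 0.05, 4 members (12.1%) beside 2.83% of all genes. SNHG11, SNHG20, SNHG8 and EPB41L4A-AS1 were lower, 4 members (12.1%) beside 3.24% of all genes. SNHG6, TAF1D and SNHG17 had p over 0.05 after the correction, and SNHG8, a host of SNORA24 with a GC content of 39.0%, moved from -0.12 to -0.45. PRSS12, on the opposite strand, covers 37.6% of the exon bases of SNHG8. It was at 13.9 CPM with a log2 fold change of -0.18 before correction, and its reads cannot be told apart from those of SNHG8. The part of GC content in the other differences was not tested.

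**Figure D4:**
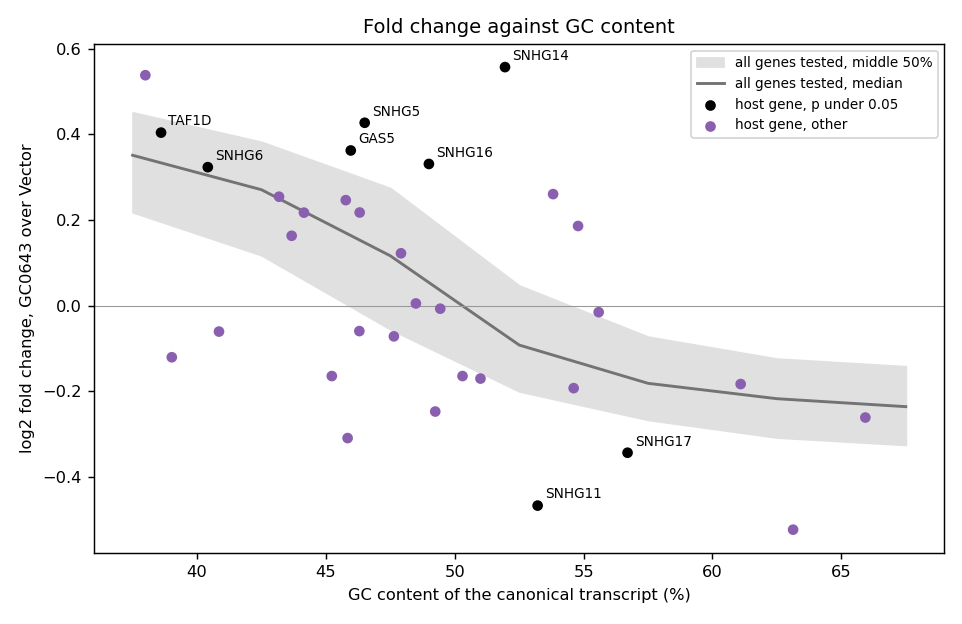
Log2 fold change (GC0643 over Vector) of the 33 members tested against the GC content of the canonical transcript in percent, over the median (line) and middle 50% (band) of all genes tested in steps of 5 points. TAF1D and SNHG6 lie near the line for all genes, GAS5, SNHG5, SNHG14 and SNHG16 above the band, and SNHG11 and SNHG17 below it.

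The snoRNAs themselves were counted to a small extent. Of the 162 small RNA genes within members, 73 had a count and 56 passed the filter. SNORD49B within SNHG29 had 1612, 1736 and 1497 counts with GC0643 and 1628, 1703 and 1614 with Vector, more than any other, and its log2 fold change was 0.01 ± 0.13 (SE). Such counts can come from the snoRNA, from its unspliced host or from a host exon that covers it, which the data do not separate, and rows at nearly the same position, such as both SNORA16A entries in SNHG12, held equal counts. SNORA32 in TAF1D (34, 33 and 30 counts against 11, 27 and 20) and SNORD26 in SNHG1 (50, 65 and 59 against 39, 45 and 33) were higher at an unadjusted p under 0.05, with log2 fold changes of 0.78 ± 0.35 and 0.61 ± 0.26 (SE), or 0.48 and 0.33 after GC correction, and adjusted p-values of 0.267 and 0.264 (edgeR), beside 13.1% of all genes. None was lower. Of the 56, 6 repeat the position of another row. With each position taken once, 36 of 50 (72%) had a positive log2 fold change, beside 51.9% of all genes, 33 were positive after GC correction, and 29 were lowest in Vector replicate 3.

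By host, the 6 snoRNAs of TAF1D that passed and the 7 of SNHG1 all had positive log2 fold changes, while both of SNHG3 and both of SNHG25 had negative ones. Summed over its snoRNAs, TAF1D had 12.0, 14.7 and 16.1 CPM with GC0643 and 10.5, 13.6 and 6.44 CPM with Vector, and SNHG1 had 23.0, 22.4 and 29.3 against 19.1, 22.6 and 10.8 CPM. Both sums overlapped between the groups. SNHG11 had 5, 7 and 2 counts at its snoRNAs with GC0643 and 8, 9 and 19 with Vector. It was the only host whose summed rows did not overlap between the groups. Among all genes tested, 10.5% did not overlap on the lower side. SNORA60 and SNORA71E of SNHG11 failed the filter that those genes passed, so that share is not a like background. SNORA71E also overlaps an exon of the canonical SNHG11 transcript, and its counts can be reads of the host. Over all members the summed snoRNA rows made 185, 224 and 230.1 CPM with GC0643 and 218, 222 and 154 CPM with Vector (213 ± 24.4 against 198 ± 38.1, SD; two-sided exact permutation p = 0.5, where 0.1 is the smallest p that 3 against 3 can give). The own sum of the 32 members with a snoRNA or scaRNA in GENCODE was 2783 ± 109.9 against 2720 ± 58.6 CPM (exact permutation p = 0.4). GAS5 and MIR17HG are not in that sum. Over all members, these 2 included, it was 3026 ± 87.7 against 2909 ± 61.0 CPM (exact permutation p = 0.2). The 84 rows within SNHG14, among them 49 of SNORD115 and 30 of SNORD116, had 0 counts in all libraries. SNORD115 and SNORD116 come in near-identical copies, and how reads that match several copies were treated is not stated for these libraries. SNORD64, SNORD107 and SNORD108, with 1 row each, were at 0 as well. GENCODE as used here places no snoRNA within GAS5, for which RefSeq lists 11.

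**Figure D5:**
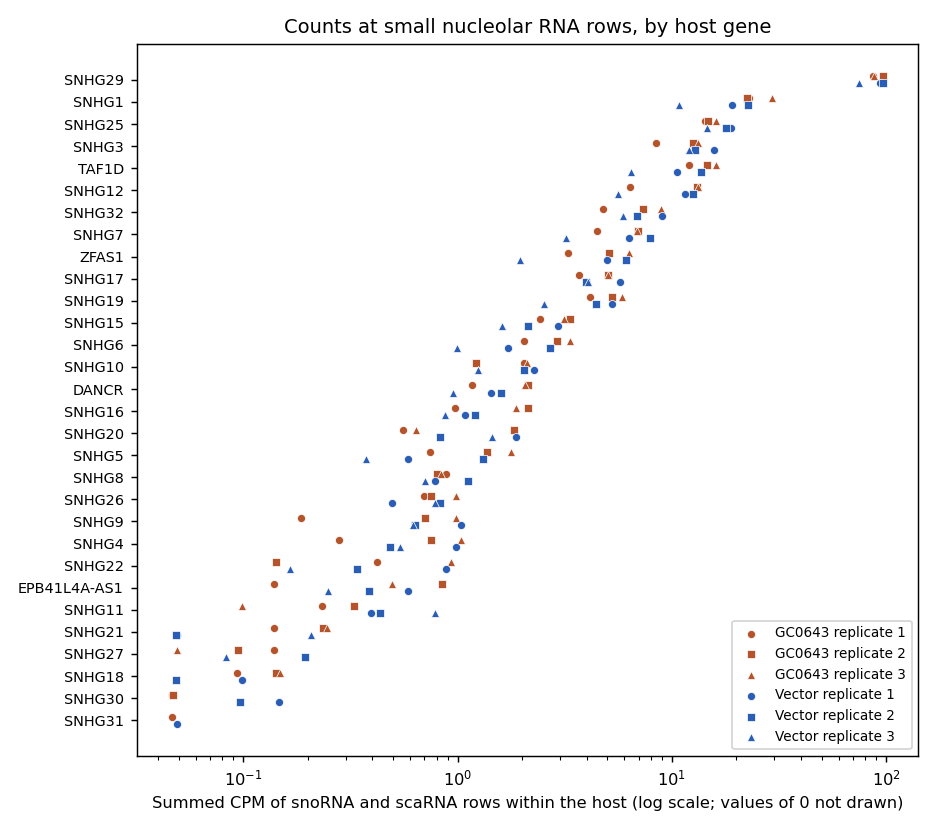
Summed CPM of the snoRNA and scaRNA rows within each host on a log axis, with 1 point per library (orange, GC0643; blue, Vector; the shape gives the replicate; values of 0 are not drawn). SNHG29 stands highest, at 88.3 CPM on average in Vector, mostly through SNORD49B, and Vector replicate 3 is the lowest point for TAF1D, SNHG1, SNHG7 and ZFAS1.

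Protein-coding snoRNA hosts, protein-coding genes outside the members with a snoRNA or scaRNA on their strand, were read from the same fit. Of 230 tested, 67 (29.1%, beside 13.1% of all genes) were higher at an unadjusted p under 0.05 and 1 (0.435%, beside 5.26%) was lower, with a median log2 fold change of 0.19 against -0.01 for the members. Their median GC content was 46.0%, against 47.9% for the members. After GC correction the median was 0.055, with 16 higher (2.83% of all genes were) and 7 lower (3.24%). Without Vector replicate 3 it was 0.0976, and without Vector replicate 2 it was 0.29. The difference between the 2 kinds of host was not tested. RPS3A, a protein of the small ribosomal subunit, was at 719 ± 38.5 CPM with GC0643 and 520.1 ± 94.5 with Vector (SD, n = 3), a log2 fold change of 0.47 ± 0.13 (SE), and of 0.24 after GC correction. DNAJC27 had 0.90 ± 0.23 and PHB2, a prohibitin, 1.41 ± 0.38 (SE), the latter at 9.65 ± 5.70 against 3.61 ± 1.11 CPM with overlapping groups.

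Genes that act on snoRNAs or on the hosts' RNA were read from lists, whose counts at an unadjusted p under 0.05 stand beside 13.1% of all genes higher and 5.26% lower. None of the 8 core proteins of snoRNA particles passed an unadjusted p under 0.05 in either direction (0 at an adjusted p, edgeR), and their median log2 fold change was 0.04. Fibrillarin (FBL), the methyltransferase of box C/D particles, had -0.16 and dyskerin (DKC1), the pseudouridine synthase of H/ACA particles, 0.23. NOP58, a box C/D core protein, had 0.33 ± 0.17, GAR1 0.28 ± 0.16 and NHP2 -0.19 ± 0.11 (SE). Of 15 factors of particle assembly and transport, 4 (26.7%) were higher and 2 (13.3%) lower, and 0 passed in either direction after GC correction. XPO1, the nuclear export receptor, was at 307 ± 22.1 against 226.5 ± 47.5 CPM (SD), a log2 fold change of 0.44 ± 0.14 (SE), RPAP3 of the R2TP complex had 0.49 ± 0.18 and RUVBL2, an ATPase of the same complex, -0.30 ± 0.12. Of 17 nonsense-mediated decay factors, 2 were higher (SMG1, the kinase that acts on UPF1, 0.31 ± 0.13; UPF2, 0.39 ± 0.18) and 1 was lower (SMG5, -0.29 ± 0.12). Of the 4 other subunits of selectivity factor 1, TAF1A was higher (6.07 ± 0.500 against 4.15 ± 0.112 CPM, SD; log2 fold change 0.55 ± 0.18, SE, and 0.22 after GC correction), while TAF1B had 0.18 and TAF1C -0.18. Of 9 regulators of pyrimidine-tract mRNAs and exonucleases, SSB (the La protein, 0.56 ± 0.18) and XRN2 (a nuclear 5' to 3' exonuclease, 0.40 ± 0.15) were higher and EIF4EBP1, a repressor of cap-dependent translation, was lower (-0.46 ± 0.14). After GC correction, 0 genes of the first 4 lists and 1 of the last passed an unadjusted p under 0.05, and the lists' medians ran from -0.03 to 0.04.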

How the data were processed

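RNA of 6 HGC-27 libraries (3 GC0643, 3 Vector) was measured by RNA-seq with the NEBNext Ultra kit. The deposited values are raw read counts per Ensembl gene, made by the authors, per the labels, with featureCounts 2.0.0 from reads trimmed by Trimmomatic 0.32 and aligned by HISAT2 2.1.0 to GRCh38. Counting options and strand are not given for these libraries; for its tumour RNA-seq the study states uniquely mapped reads, counted for every overlapping gene, with no strand option named. Of 58825 genes, 58472 matched GENCODE version 44, which gave names, positions, lengths and GC content. Counts were filtered (filterByExpr), scaled by TMM and fitted by edgeR 4.0.16 (R 4.3.3) quasi-likelihood with the group as the only term, with Benjamini-Hochberg adjustment over the 19528 genes that passed. SEs are the log2 fold change over the root of F. The biological coefficient of variation was 14.8%. The code was tested on simulated data. Alternatives used limma 3.58.1, DESeq2 1.42.0, other scalings and filters, a loess GC correction (span 0.3, prior count 1), a replicate block and each library left out. GC correction without Vector replicate 2 was added after seeing the data. Values per library are given for the 6 listed members, the 8 others with the smallest p and the 6 others highest per kilobase, and list genes are the 3 with the smallest p. Any other gene named was chosen after its values were seen. Members and lists were chosen with earlier results of these data known. Count floors cover counting error only.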

Additional observations from a re-analysis of the deposited data

How the results depend on the processing

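With 3 libraries per group, adjusted p-values near 0.26 leave single host genes undecided, and the depth limits SNHG9, SNHG22, SNHG27, SNHG31 and MIR17HG most. The number of genes past an adjusted p under 0.05 was 0 as reported, 16 by the likelihood ratio test, 1 by DESeq2, 1 with DESeq2 size factors and 224 with no filter on low counts, and ranged from 0 to 3813 with each library left out in turn, the highest without Vector replicate 2. Host genes past it numbered 0 to 6 in the same runs, the 6 without Vector replicate 2, and 0 under all other alternatives. Genes higher at an unadjusted p under 0.05 numbered 2553 as reported, 550 after GC correction, 1353 with GC correction and Vector replicate 2 left out, and 827 to 4564 with each library left out. Genes lower numbered 1028, 629 after GC correction and 367 to 2842 with each library left out. Host genes higher at that p numbered 6, 2 with GC correction and Vector replicate 2 left out, and 3 to 9 with each library left out, where leaving out GC0643 replicate 2 or 3 or Vector replicate 1 or 3 gave 3. Host genes lower numbered 2, 4 after GC correction, 7 with GC correction and Vector replicate 2 left out, and 0 to 6 with each library left out, where leaving out GC0643 replicate 1 or Vector replicate 3 gave 0, Vector replicate 1 gave 1 and Vector replicate 2 gave 6. The share of all genes lower with GC correction and Vector replicate 2 left out is not given here. The 7 host genes therefore cannot be read against it. The median log2 fold change of protein-coding hosts fell from 0.19 to 0.055 after GC correction, and was 0.0976 without Vector replicate 3 and 0.29 without Vector replicate 2.

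Same-numbered libraries did not deviate together from their group means (correlations of -0.21, -0.03 and -0.31). Whether the numbers mark a shared batch or pairing cannot be told from 3 libraries per group. With a replicate block, 24 genes passed the adjusted p (2 with GC correction as well) and 0 host genes. At an unadjusted p the replicate block gave 314 genes lower and 1 host gene lower, and with GC correction it gave 389 genes higher, 387 lower, 2 host genes higher, and a median of 0.0543 for protein-coding hosts. By deviations from the group means, no GC0643 library correlated best with the Vector library of its own number. By log2 CPM over all genes, GC0643 replicates 1 to 3 each correlated best with Vector replicate 2 among the Vector libraries (0.991, 0.995 and 0.995). For GC0643 replicate 2 that is the library of its own number.

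Of 558 values of single host genes under the alternatives, 518 kept direction and side of the threshold, 6 passed it (GAS5, SNHG5, SNHG6, TAF1D, SNHG11 and SNHG17, all without Vector replicate 2) and 34 changed sign, in 13 genes none of which was among the 8 at p under 0.05. The cause was not tested. After GC correction, SNHG25 came to 0.0016, SNHG19 to 0.10, SNHG21 to -0.0492 and SNHG18 to -0.0635. With GC correction and the replicate block these were 0.0143, 0.13, -0.0508 and -0.0523, and with GC correction and Vector replicate 2 left out they were 0.0740, 0.28, -0.0418 and -0.11, with SNHG1 at -0.0837. SNHG19 came to 0.0215 by limma voom and 0.0107 with the replicate block, and SNHG18 to -0.0242 by DESeq2 and -0.0240 with DESeq2 size factors. With each library left out in turn, the log2 fold change ran from -0.18 to 0.0428 for DANCR, -0.0635 to 0.29 for SNHG10, -0.0404 to 0.38 for SNHG12, -0.11 to 0.14 for SNHG18, -0.23 to 0.11 for SNHG19, -0.53 to 0.16 for SNHG22, -0.0342 to 0.0140 for SNHG29, -0.15 to 0.0346 for SNHG3, -0.27 to 0.0736 for SNHG30 and -0.20 to 0.0049 for SNHG8.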
